A study of Homo sapiens with 4 samples.

Results

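The unfolded protein response is the program by which a cell restores protein folding in the endoplasmic reticulum, and 10 of its genes were followed here: HSPA5, HSP90B1, CALR, DDIT3, ATF4, ATF6, XBP1, ERN1, DNAJB9 and HERPUD1. They were taken by gene symbol from a table of 47251 genes, and each symbol had 1 row. The 4 libraries came from AGS, an established human gastric adenocarcinoma cell line. A pair of libraries came from cells carrying a lentiviral short hairpin RNA (shRNA) against MFAP2, which encodes a microfibril protein of the extracellular matrix, and the other pair from cells carrying a scrambled control shRNA. Both kinds of cells had been infected with lentivirus and kept under puromycin to select stable carriers. A single shRNA stood for the knockdown, and no source used here said whether the 2 libraries of a group came from separate cultures, so every p-value measured only the spread between these libraries.

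In the unfolded protein response, IRE1 (encoded by ERN1), PERK (EIF2AK3) and ATF6 sit in the membrane of the endoplasmic reticulum and sense unfolded protein. IRE1 cuts a short intron out of XBP1 mRNA, which shifts the reading frame and yields the active XBP1 factor, PERK phosphorylates the initiation factor eIF2 alpha and thereby favours translation of ATF4, and ATF6 is cut in the Golgi to release a transcription factor. The factors made in this way raise chaperones such as BiP (HSPA5), GRP94 (HSP90B1) and calreticulin (CALR), and genes of the pathway that degrades misfolded protein. In secretory and epithelial cells these genes are active at a basal level that follows the load of protein entering the endoplasmic reticulum.

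Values were deposited as FPKM, fragment numbers scaled to length and library size, without read counts. For the followed genes with several transcripts, the gene values implied a length above that of the longest transcript. For XBP1 it was 3028 bases against 2173 bases. Gene values of these genes were therefore lower than the sums of their transcript values. Differences are given on the log2(FPKM + 1) scale as sh-MFAP2 minus control, which understates changes of weakly expressed genes, and were tested with limma over the 9873 genes whose mean over the libraries reached 1 FPKM. A gene was called changed at p under 0.01 with a Benjamini-Hochberg adjusted p under 0.05. The scale of the lowest values placed the libraries at about 27300000 to 37300000 fragments, although only 46.8% to 49.8% of low values lay within 0.05 of a whole fragment, so counts could not be recovered. MFAP2 itself had 0 FPKM in each sh-MFAP2 library, and its control values were 0.0116 and 0.0138 FPKM. The latter corresponded to about 1.00 and 1.5 fragments, so the target gene was too weak in every library to check the labels.

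The epithelial markers EPCAM, KRT8, KRT18 and KRT19 were high in all 4 libraries, with the sum of the 6 epithelial markers between 1891 and 1937 FPKM with the MFAP2 shRNA and between 1733 and 1962 FPKM with the control shRNA, while KRT7 and CDH1 were near or below 1 FPKM. Of 5 leukocyte markers only LYZ exceeded a mean of 1 FPKM, with levels of 85.5 and 579 FPKM under the MFAP2 shRNA against 89.3 and 369 FPKM under the control shRNA. Of 6 fibroblast markers only COL1A1 did so, and the summed fibroblast markers ranged from 2.12 to 2.34 FPKM with the MFAP2 shRNA against 4.39 to 4.96 FPKM with the control shRNA. The 4 endothelial markers summed to at most 0.0380 FPKM in any library. The part of these differences in the results below was not tested.

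Of the 10 genes, 9 passed the limit of 1 FPKM and were tested, ERN1 lying below it. None of the 9 was called changed by limma, against 0.273% of all genes tested (27 of 9873). At an unadjusted p under 0.05 the count was 1 gene higher in sh-MFAP2 cells, XBP1, and 0 lower, where 3.89% of all genes tested were higher and 8.41% lower. XBP1 and ATF4 lay above both control values in both sh-MFAP2 libraries, a pattern held by 17.5% of all genes tested. CALR, ATF6, DNAJB9 and HERPUD1 lay below both control values, as 31.4% of all genes tested did. The median difference of the 9 genes was -0.01, and that of all genes tested was -0.05.

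**Figure D1:**
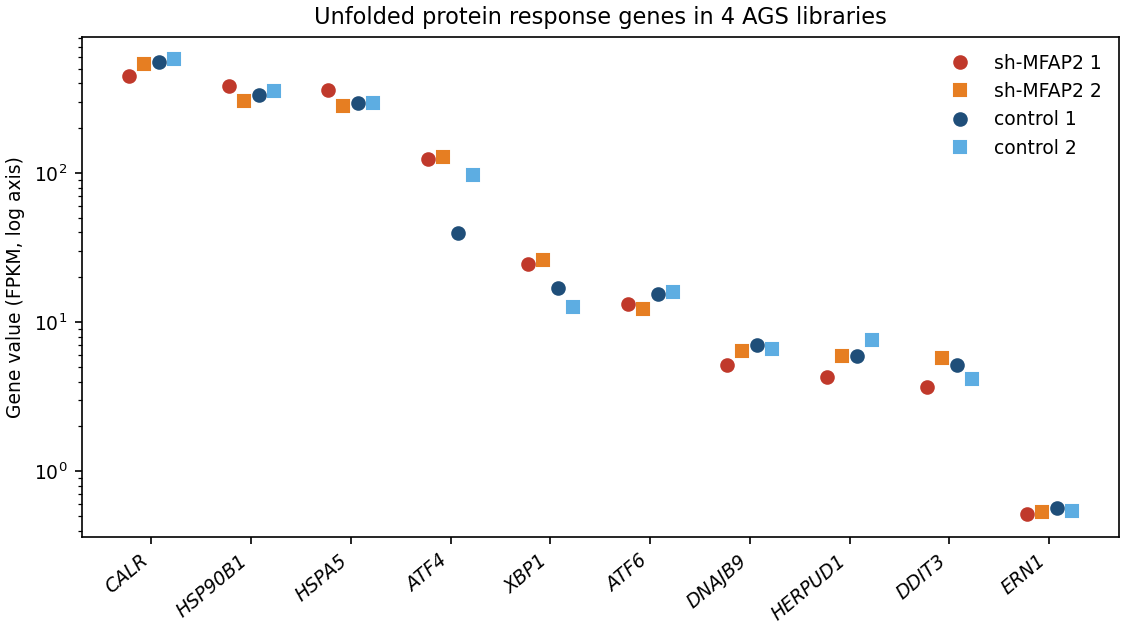
Value of each of the 10 genes in FPKM (log axis) in the 2 sh-MFAP2 and 2 control libraries, 1 point per library. XBP1 and ATF4 have both sh-MFAP2 points above both control points, and control replicate 1 of ATF4 (39.8 FPKM) stands below the other 3 libraries.

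**Figure D2:**
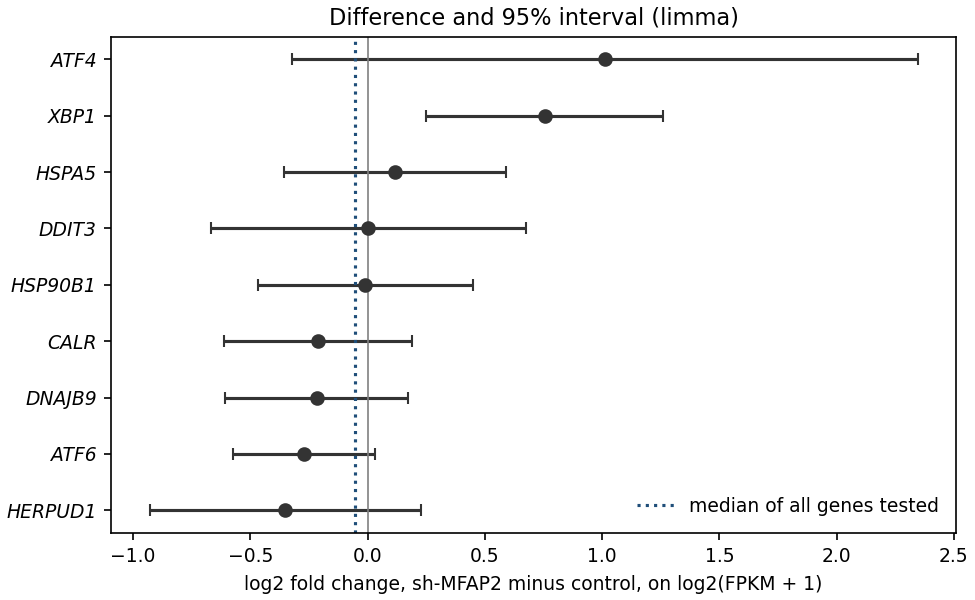
Difference between sh-MFAP2 and control on the log2(FPKM + 1) scale with its 95% interval from limma for the 9 tested genes, with the median of all genes tested as a dotted line. The interval of XBP1 (0.25 to 1.26) is the only one that leaves out 0, and that of ATF4 is the widest (-0.32 to 2.35).

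Ranked by mean FPKM among the 9873 genes tested, the chaperones CALR, HSP90B1 and HSPA5 stood at 24, 54 and 68. ATF4 stood at 302, XBP1 at 1875 and ATF6 at 2643, while DNAJB9, HERPUD1 and DDIT3 stood at 4999, 5213 and 5943. CALR exceeded HSP90B1 in every library, and HSP90B1 exceeded HSPA5 in every library although their ranges over the 4 libraries overlapped. XBP1 and ATF6 overlapped in the control libraries, and so did DNAJB9, HERPUD1 and DDIT3 over all 4 libraries. These ranks and overlaps hold for the gene values only. In the sums of transcript values, HSP90B1 stood at 512 to 643 FPKM and HSPA5 at 282 to 363 FPKM. HERPUD1 stood at 11.7 to 15.5 FPKM, above DNAJB9 (5.54 to 7.45 FPKM) and DDIT3 (4.61 to 7.55 FPKM). In the control libraries XBP1 stood at 28.4 and 21.5 FPKM, above ATF6 (16.1 and 16.8 FPKM).

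ERN1 encodes IRE1, the kinase and endoribonuclease that splices XBP1 mRNA. It lies at chr17:64039142-64130819 on the minus strand (GRCh38). Its level was 0.519 and 0.537 FPKM with the MFAP2 shRNA and 0.571 and 0.539 FPKM with the control shRNA. The sh-MFAP2 values were the lower ones by a narrow margin, and each library held roughly 159 to 219 fragments. In a fit without the expression limit, over 23806 genes, the difference was -0.02 (SE 0.0702, 95% interval -0.23 to 0.18, adjusted p = 0.916 by limma). The sum of the ERN1 transcript values was 1.32 and 1.26 FPKM with the MFAP2 shRNA and 1.28 and 0.839 FPKM with the control shRNA. It gave a difference of the opposite sign, 0.16.

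ATF6 encodes the sensor that is released from the membrane as a transcription factor, and lies at chr1:161766294-161964070 on the plus strand. It was listed at 13.3 and 12.3 FPKM with the MFAP2 shRNA and at 15.3 and 15.9 FPKM in control cells. Both sh-MFAP2 libraries lay below both control libraries. The difference was -0.27 (SE 0.107, 95% interval -0.58 to 0.03) and did not pass the test (limma, adjusted p = 0.417).

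XBP1 encodes the factor whose mRNA is the substrate of IRE1, and lies at chr22:28794555-28800597 on the minus strand. Levels of 24.6 and 26 FPKM were measured with the MFAP2 shRNA and 16.9 and 12.6 FPKM with the control shRNA, or 25.3 ± 0.941 against 14.7 ± 3.06 FPKM (mean ± SD, n = 2). Every sh-MFAP2 value was above every control value, and the ratio of the means was 1.72. The difference on the log2(FPKM + 1) scale was 0.76 (SE 0.178, 95% interval 0.25 to 1.26). With an unadjusted p of 0.0149 and an adjusted p of 0.346 (limma), XBP1 was not called changed. Leaving out each library in turn gave differences of 0.56 to 0.96, the lowest without control replicate 2 and the highest without control replicate 1.

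The transcript table held the XBP1 mRNA in forms with and without the 26-base intron that IRE1 removes, and the bases at that site are shown because they separate the spliced from the unspliced forms. Sequences were read from GENCODE 29 transcripts (GRCh38, minus strand, 5′ to 3′). The intron, in capitals with 2 flanking bases on each side, is placed by the annotation of ENST00000344347 at chr22:28796122-28796147 and by that of ENST00000611155 at chr22:28796124-28796149, and both placements leave the same joined sequence. In the joined sequence the bases after the junction are in capitals. The last line shows, in capitals, the 15 bases at chr22:28799042-28799056 by which exon 2 of ENST00000403532 is longer than in ENST00000216037.
XBP1 intron as in ENST00000344347: caCTCAGACTACGTGCACCTCTGCAGCAgg
XBP1 intron as in ENST00000611155: agCACTCAGACTACGTGCACCTCTGCAGca
XBP1 joined sequence in ENST00000344347: gctgagtccgcagcaGGTGCAGGCCCAGTT
XBP1 exon 2 extension in ENST00000403532: agaagagGTAAAACTACTTAAGaaccaaa

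The reading frame of the spliced transcripts ENST00000344347 and ENST00000611155 ran to 376 codons. That of the unspliced ENST00000216037 ended after 261 codons, and the 15 added bases gave ENST00000403532 a frame of 266 codons. Splicing by IRE1 thus replaces the C-terminal end of the protein, and the longer frame encodes the strong transcriptional activator.

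Among all 29 tested transcripts of the 10 genes none was called changed by limma, and 0.0% of all transcripts tested (0 of 22312) were called. At an unadjusted p under 0.05, 3 were higher in sh-MFAP2 cells and 0 were lower, where 3.22% of all transcripts tested were higher and 4.41% lower. The 3 were XBP1 transcripts. They share one gene and overlapping fragments, so they are not independent of each other or of the gene value.

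ENST00000344347, a spliced form of 1131 bases, was listed at 6.92 and 4.87 FPKM with the MFAP2 shRNA and at 1.90 and 2.16 FPKM in control cells. Its difference was 1.17 (SE 0.236, adjusted p = 0.440 by limma). The other spliced form, ENST00000611155 of 1794 bases, was listed at 3.73 and 5.90 FPKM against 2.51 and 2.75 FPKM, a difference of 0.66 (SE 0.263, adjusted p = 0.674). In both spliced forms each sh-MFAP2 value exceeded both control values.

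ENST00000216037, the main unspliced form of 1850 bases, did not share that order. It was listed at 12.8 and 17.9 FPKM with the MFAP2 shRNA and at 22.4 and 11.8 FPKM in control cells, a difference of -0.10 (SE 0.394, adjusted p = 0.950 by limma). The unspliced ENST00000403532, which carries the longer exon 2, was listed at 11.6 and 5.17 FPKM against 0.554 and 0.161 FPKM, a difference of 2.71 (SE 0.444, adjusted p = 0.353). The retained-intron transcript ENST00000484256, which has no annotated reading frame, was listed at 5.90 and 6.72 FPKM against 0.812 and 1.43 FPKM, a difference of 1.8 (SE 0.239, adjusted p = 0.287). These last forms, like the spliced ones, were higher in both sh-MFAP2 libraries, whereas ENST00000405219, at 1.5 and 3.16 FPKM against 0.116 and 3.18 FPKM, overlapped between groups.

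Summed over the transcripts, XBP1 stood at 42.4 and 43.8 FPKM with the MFAP2 shRNA and at 28.4 and 21.5 FPKM in control cells, a ratio of means of 1.73. Without ENST00000216037 the sum was 29.7 and 25.9 FPKM against 5.95 and 9.69 FPKM, a ratio of 3.55. That form was left out after its values were seen, so this ratio only describes how the forms differed. ENST00000216037 thus made up 30.1% and 40.9% of the XBP1 sum in sh-MFAP2 cells and 79.0% and 55.0% in control cells. Spliced forms summed to 10.7 and 10.8 FPKM against 4.41 and 4.91 FPKM, a ratio of 2.30, and forms that kept the intron to 31.7 and 32.9 FPKM against 23.9 and 16.6 FPKM, a ratio of 1.60.

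The spliced share of all XBP1 transcript FPKM was 25.1% and 24.6% in sh-MFAP2 cells and 15.6% and 22.8% in control cells. Its denominator held every XBP1 transcript, also those without an annotated reading frame. The spliced ENST00000344347 is annotated at 1131 bases, of which 1128 are coding, against 1794 bases for ENST00000611155. FPKM is scaled to that length, so each of its fragments adds more to the share than a fragment of a longer form. Shares of fragments were not computed, so the order of the groups below holds for FPKM only. Both sh-MFAP2 shares exceeded both control shares, by 5.64 percentage points between the means (24.8% ± 0.392 against 19.2% ± 5.15, SD, n = 2). The two-sided exact permutation p was 0.33, which is the smallest that 2 against 2 libraries allow. Without control replicate 1 the difference was 2.0 points and without control replicate 2 it was 9.29 points. Over the 4 full-length coding transcripts alone the shares were 30.4% and 31.8% against 16.1% and 29.1%, a difference of 8.54 points. The authors' quantification divided fragments among transcripts that share most of their bases, and only fragments across the intron distinguish the spliced forms, so these shares are estimates whose error the files do not give.

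**Figure D3:**
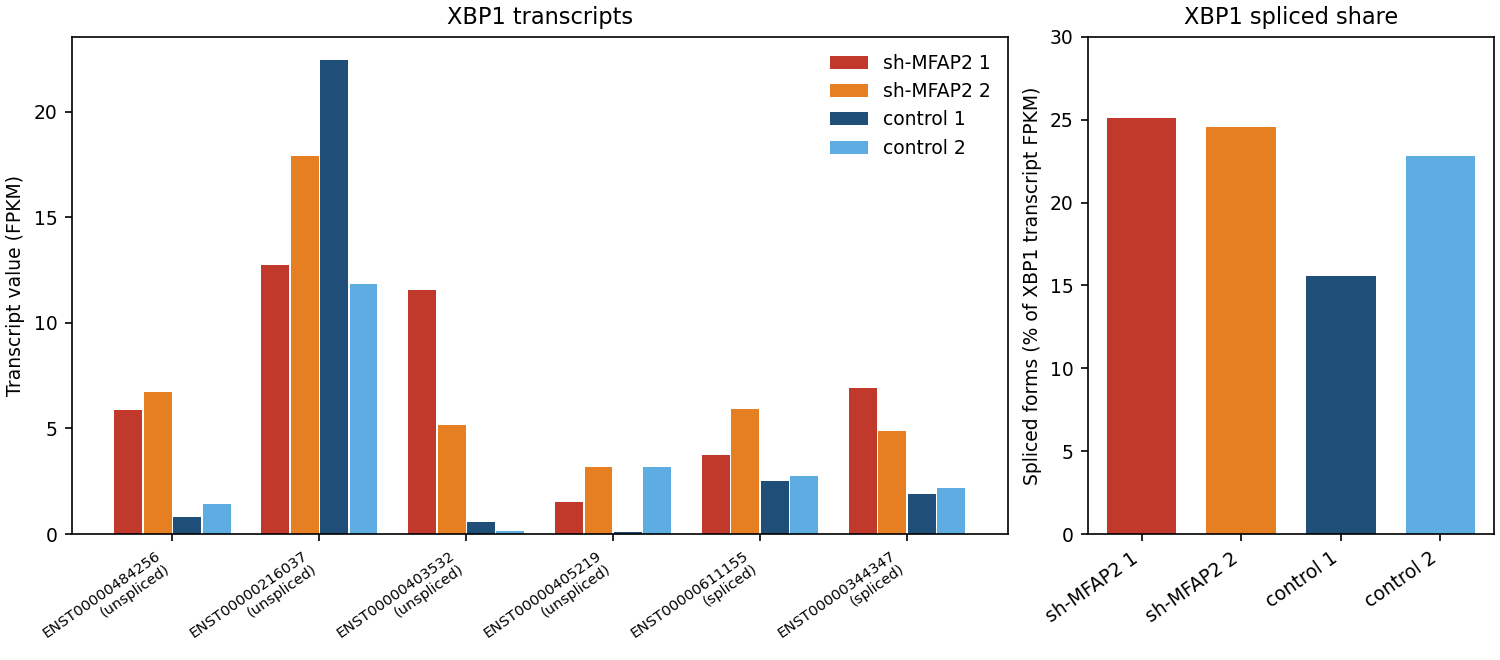
FPKM of the XBP1 transcripts whose mean reached 1 FPKM in each of the 4 libraries, and the spliced share of all XBP1 transcript FPKM in percent, 1 value per library. ENST00000216037 overlaps between the groups, whereas both spliced forms, ENST00000403532 and ENST00000484256 are higher in both sh-MFAP2 libraries.

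ATF4 encodes the factor of the PERK arm that drives genes of amino acid supply and redox control, and lies at chr22:39519695-39522685 on the plus strand. It was listed at 125 and 128 FPKM with the MFAP2 shRNA and at 39.8 and 96.6 FPKM in control cells. The sh-MFAP2 values were close together and above both controls, while the control values lay far apart (SD 40.2 FPKM, n = 2). The difference was 1.01 (SE 0.469, 95% interval -0.32 to 2.35) and did not pass the test (limma, adjusted p = 0.460). Without control replicate 1 it was 0.38 and without control replicate 2 it was 1.64.

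The ATF4 transcripts carried the same coding length of 1053 bases and differed in their exons. ENST00000337304, of 2019 bases, was listed at 113 and 108 FPKM with the MFAP2 shRNA and at 12.8 and 80.9 FPKM in control cells. It made up 67.0%, 64.6% and 60.9% of the ATF4 sum in sh-MFAP2 replicates 1 and 2 and control replicate 2, but 19.7% in control replicate 1. ENST00000396680, of 1419 bases, was listed at 44.1 and 21.6 FPKM against 51.4 and 39.4 FPKM, so that the low control library was low in ENST00000337304 and not in this form. ENST00000404241, of 1910 bases, was listed at 11.7 and 37.7 FPKM against 0.735 and 12.5 FPKM. ATF4 is regulated largely at translation, which RNA levels do not measure.

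DDIT3 encodes CHOP, the factor downstream of ATF4 that is linked to cell death under lasting stress, and lies at chr12:57516588-57521737 on the minus strand. It was listed at 3.70 and 5.80 FPKM with the MFAP2 shRNA and at 5.19 and 4.14 FPKM in control cells. The groups overlapped, on about 143 to 200 fragments per library, and the difference was 0.00 (SE 0.237, 95% interval -0.67 to 0.68, adjusted p = 0.996 by limma). Its sign turned when replicate 2 of the sh-MFAP2 group (-0.26) or of the control group (-0.13) was left out. Exons of MARS and MBD6 overlap DDIT3 on the opposite strand, and since no source said whether counting used the strand, their reads cannot be told apart. Exons of AC022506.1, a protein-coding gene, overlap DDIT3 on the same strand, where the strand would not separate the reads.

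HSPA5 encodes BiP, the Hsp70 chaperone of the endoplasmic reticulum lumen that also holds the sensors inactive, and lies at chr9:125234853-125241330 on the minus strand. Its levels were 363 and 282 FPKM with the MFAP2 shRNA and 295 and 295 FPKM in control cells. The control libraries lay between the sh-MFAP2 libraries. The difference was 0.12 (SE 0.166, 95% interval -0.36 to 0.59, adjusted p = 0.775 by limma), and it became -0.06 without sh-MFAP2 replicate 1.

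HSP90B1 encodes GRP94, the Hsp90 chaperone of the same compartment, and lies at chr12:103930107-103953645 on the plus strand. The libraries gave 385 and 306 FPKM with the MFAP2 shRNA and 336 and 355 FPKM in control cells. As for HSPA5, sh-MFAP2 replicate 1 was the highest and sh-MFAP2 replicate 2 the lowest of the 4 libraries. The difference was -0.01 (SE 0.161, 95% interval -0.47 to 0.45, adjusted p = 0.984 by limma), and it became 0.16 when sh-MFAP2 replicate 2 was left out and 0.03 when control replicate 2 was. Exons of TTC41P and C12orf73 overlap it on the opposite strand. Its main transcript, ENST00000299767, followed the gene at 554 and 463 against 516 and 544 FPKM, while the retained-intron transcript ENST00000548462 was listed at 68.4 and 32.3 against 30.5 and 33.4 FPKM, high in sh-MFAP2 replicate 1 alone.

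CALR encodes calreticulin, a calcium-binding lectin chaperone that folds glycoproteins, and lies at chr19:12938578-12944489 on the plus strand. The gene stood at 448 and 536 FPKM with the MFAP2 shRNA and at 558 and 578 FPKM in control cells. Both sh-MFAP2 values lay below both control values, with sh-MFAP2 replicate 1 the lower. The difference was -0.21 (SE 0.141, 95% interval -0.61 to 0.19) and did not pass the test (limma, adjusted p = 0.559). An antisense gene, AC092069.1, overlaps its exons on the opposite strand.

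DNAJB9 encodes ERdj4, a J-domain cochaperone of BiP induced through XBP1, and lies at chr7:108569568-108574850 on the plus strand. It was listed at 5.18 and 6.37 FPKM with the MFAP2 shRNA and at 7.08 and 6.62 FPKM in control cells. The sh-MFAP2 values lay below both controls, sh-MFAP2 replicate 2 only narrowly. The difference was -0.22 (SE 0.137, 95% interval -0.61 to 0.17, adjusted p = 0.547 by limma). Exons of PNPLA8 and THAP5 overlap it on the opposite strand.

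HERPUD1 encodes a membrane protein that helps to assemble the machinery for degrading misfolded proteins of the endoplasmic reticulum, and lies at chr16:56932048-56944863 on the plus strand. It was listed at 4.29 and 5.90 FPKM with the MFAP2 shRNA and at 5.92 and 7.57 FPKM in control cells. The upper sh-MFAP2 value and the lower control value were nearly equal. The difference was -0.35 (SE 0.204, 95% interval -0.93 to 0.23, adjusted p = 0.522 by limma).

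The main HERPUD1 transcripts differed widely between the libraries of each group. ENST00000439977, of 2946 bases and with the longest 3′ end, was listed at 1.93 FPKM in replicate 1 and 8.09 FPKM in replicate 2 with the MFAP2 shRNA, and at 5.22 and 10.8 FPKM, in the same order, with the control shRNA. It held 16.5% and 65.0% of the HERPUD1 sum in sh-MFAP2 cells and 35.9% and 69.5% in control cells. ENST00000300302, of 1862 bases, took the opposite course at 5.52 and 1.46 against 5.11 and 1.65 FPKM. Replicate 2 of each group therefore carried mostly the long form and replicate 1 less of it. LYZ, given above, was also high in both libraries numbered 2. Across all genes tested, the deviations of same-numbered libraries had a correlation of -0.06. Why HERPUD1 transcripts and LYZ followed the library number was not tested.

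**Figure D4:**
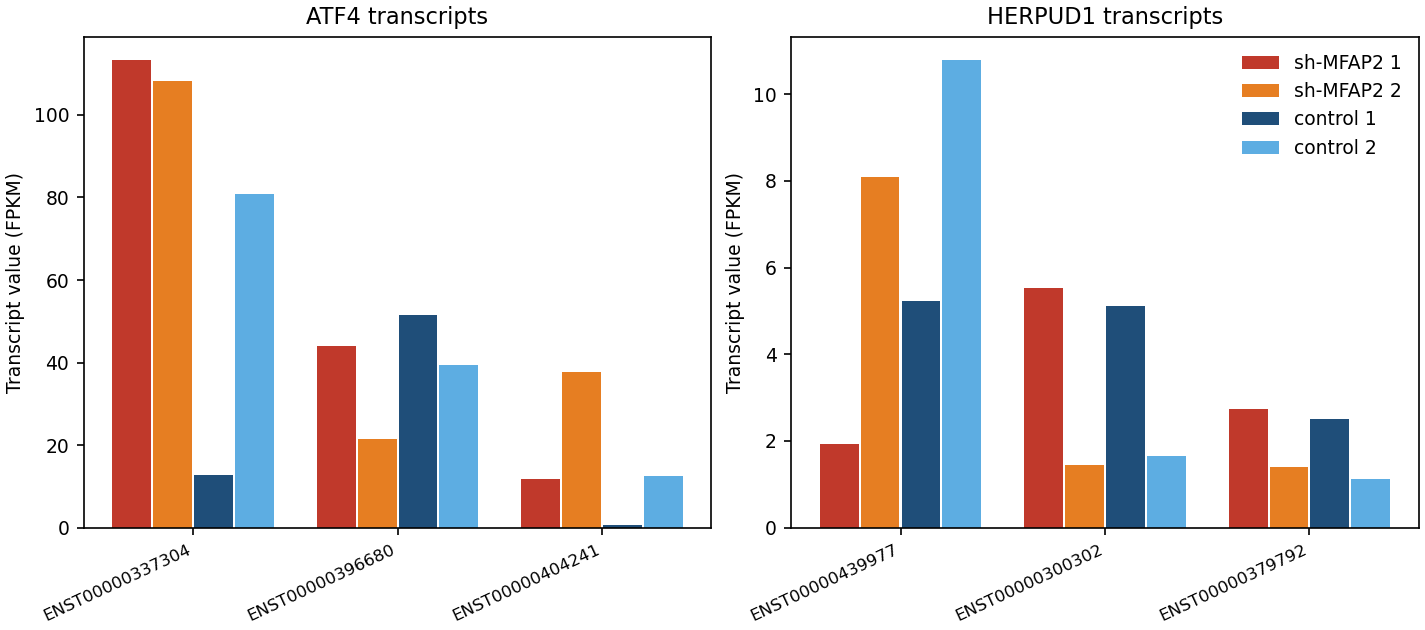
FPKM of the ATF4 and HERPUD1 transcripts whose mean reached 1 FPKM, 1 bar per library. For ATF4 the bar of control replicate 1 is low in ENST00000337304 (12.8 FPKM), and for HERPUD1 the long ENST00000439977 is high in replicate 2 of both groups (8.09 and 10.8 FPKM).

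Chaperone promoters are known for the endoplasmic reticulum stress response element (ERSE), a bipartite site read by ATF6 and XBP1 together with NF-Y. Promoters of all 10 genes were found by symbol in a RefSeq table (GRCh38.p14), each holding 250 bases before to 50 bases after the start, and were searched on both strands for the ERSE (CCAAT, any 9 bases, CCACG) and for ERSE-II (ATTGG, any base, CCACG). The search left out 1 chromosome, which held none of the 10 genes. Counted by gene, the ERSE stood in 4 of the 10. Counted by promoter, it stood in 27 of 35116 promoters of the same length (0.0769%). ERSE-II stood in 1 of the 10 and in 19 of all (0.0541%). Since the ERSE is known from chaperone promoters, these shares describe the chosen genes and are not a result of these data. Each match is shown 5′ to 3′ on the strand where it reads in this direction, with both parts of the site in capitals and 3 flanking bases on each side, because the genes that carry it include the most abundant chaperones and XBP1 itself.
HSPA5, chr9:125241391-125241409: tcaCCAATcggcggcctCCACGacg
HSP90B1, chr12:103930216-103930234: tgaCCAATcggaaggagCCACGctt
HSP90B1, chr12:103930321-103930339: ccaCCAATcgcgccgcaCCACGcac
CALR, chr19:12938384-12938402: cgaCCAATgatggtcgaCCACGcgt
XBP1, chr22:28800603-28800621: tggCCAATcgcggagggCCACGacc
HERPUD1 (ERSE-II), chr16:56932025-56932035: ccgATTGGgCCACGttg

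The coordinates span the site from its first to its last capital base. Of the genes with an ERSE, XBP1 had both sh-MFAP2 values above both controls, CALR had both below, and HSPA5 and HSP90B1 overlapped. Over all searched promoters with an ERSE, 14 genes were tested, and 7 of them were higher and 7 lower in the mean of sh-MFAP2 cells. None was called, and their median difference was 0.04, against -0.05 over all genes tested. A match describes the letters of the window and not binding in these cells.

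The wider response was described with 4 lists of 69 further genes, of which 59 were tested. None of the 59 was called changed by limma (0.273% of all genes tested were), and at an unadjusted p under 0.05 there were 2 higher and 5 lower. Over all genes tested, 3.89% were higher and 8.41% lower at that p. In 10 genes both sh-MFAP2 values lay above both controls and in 17 below, patterns held by 17.5% and 31.4% of all genes tested, and the median difference was -0.04. The 14 tested genes of the PERK-ATF4 arm had a median of 0.11, the 17 chaperones and folding enzymes -0.04, the 20 genes of the IRE1-XBP1 arm and of degradation -0.08, and the 8 genes of ATF6 processing and related factors -0.06. Among the PERK-ATF4 genes below the limit of 1 FPKM were TRIB3, SLC7A11 and STC2, so part of that arm was not tested.

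In the PERK-ATF4 arm, ASNS, the asparagine synthetase induced by ATF4, was listed at 6.74 and 6.34 FPKM with the MFAP2 shRNA and at 4.58 and 4.49 FPKM in control cells. Its replicates were close together, and the difference was 0.44 (SE 0.10, adjusted p = 0.341 by limma). CEBPB, which encodes a partner of CHOP and ATF4, was listed at 0 with the MFAP2 shRNA in each library and at 3.15 and 5.46 FPKM in control cells, with an adjusted p of 0.137 (limma). It is 1 of the 5 lower genes counted above, and no fold is given. ADO, a gene outside the lists, was chosen after its values were seen. It was listed at exactly 0 in both control libraries and at 9.60 and 8.98 FPKM with the MFAP2 shRNA. Whether a listed 0 meant low expression was not tested for either gene.

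Of the folding enzymes, PPIB, a proline isomerase of the lumen, was listed at 329 and 337 FPKM with the MFAP2 shRNA and at 266 and 258 FPKM in control cells, a difference of 0.35 (SE 0.105, adjusted p = 0.394 by limma). It was the only one of the list at an unadjusted p under 0.05 with a higher level in sh-MFAP2 cells. CANX, the membrane-bound lectin chaperone calnexin and partner of calreticulin, was listed at 74.4 and 61.4 FPKM against 95.8 and 107 FPKM, a difference of -0.58 (SE 0.154, adjusted p = 0.370). TXNDC5, a protein disulfide isomerase, was listed at 169 and 155 FPKM against 228 and 226 FPKM, a difference of -0.48 (SE 0.111, adjusted p = 0.344). Also lower in both libraries was DNAJC10, which encodes the reductase ERdj5, at 6.33 and 6.09 FPKM against 8.19 and 8.45 FPKM, a difference of -0.37 (SE 0.0990, adjusted p = 0.371).

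In the ATF6 arm, MBTPS1, which encodes the site-1 protease that makes the first cut in ATF6, was listed at 10.2 and 9.70 FPKM with the MFAP2 shRNA and at 13.8 and 12.9 FPKM in control cells. The difference was -0.39 (SE 0.106, adjusted p = 0.378 by limma). ATF6 and MBTPS1 thus both stood lower in each sh-MFAP2 library, as 31.4% of all genes tested did, and neither passed the test. Of the 8 tested genes in the list that holds MBTPS1, 4 had a higher mean in sh-MFAP2 cells and 4 a lower one. No gene of the IRE1-XBP1 and degradation list had an unadjusted p under 0.05 in either direction.

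**Figure D5:**
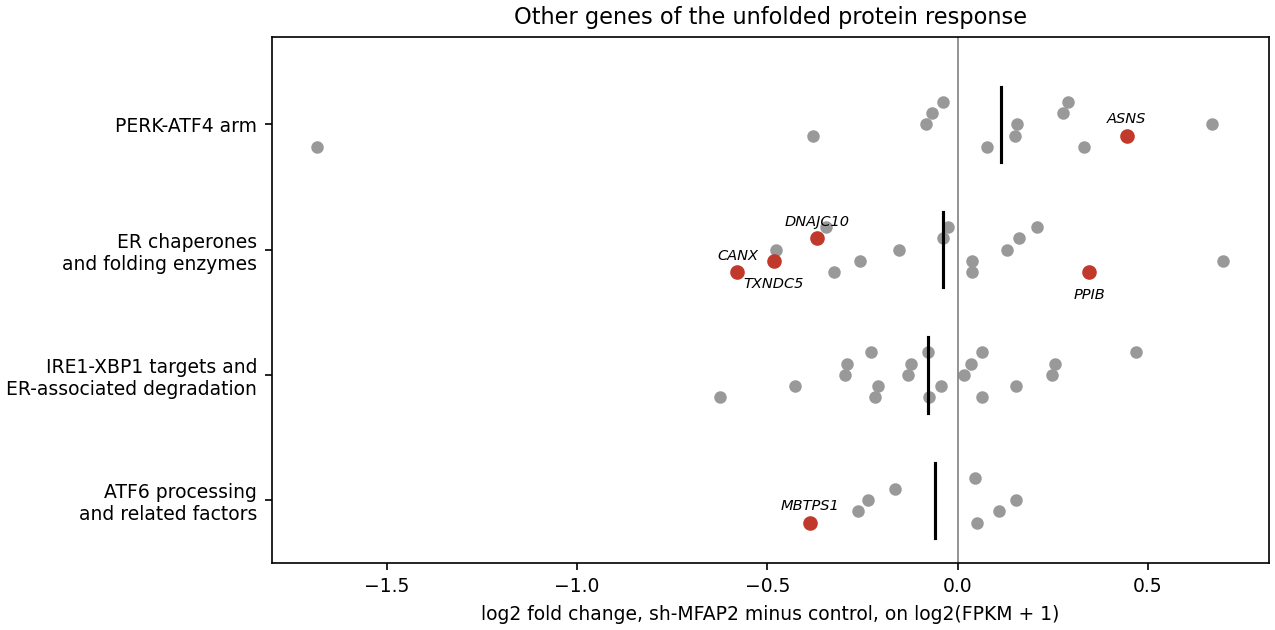
Difference between sh-MFAP2 and control on the log2(FPKM + 1) scale for the tested genes of 4 further lists, 1 point per gene, with each list's median as a black bar and genes at an unadjusted p under 0.05 without overlap of the groups in red. CEBPB, listed at 0 in both sh-MFAP2 libraries, is left out of the points. The medians lie between -0.08 and 0.11.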

How the data were processed

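Gene and transcript tables were deposited as FPKM for 47251 genes and 180500 transcripts of 4 AGS libraries, made by the authors from RNA sequencing. The submitters' processing notes name hg38. The quantification tool and strandedness were not given in the sources used here. Transcript lengths, also deposited, were used only for sums, implied gene lengths and inferred fragments. The step of 1 fragment was the most common low value of FPKM times length. Of the gene identifiers, 43715 (92.5%) were in GENCODE 29 (GRCh38), which gave coordinates and transcript structures. Genes and transcripts with a mean of at least 1 FPKM were tested on log2(FPKM + 1) with limma 3.58.1 (R 4.3.3, lmFit and eBayes with trend) over all 4 libraries without covariates, with Benjamini-Hochberg adjustment over all features tested. The fit was tested on simulated data, in which 200 of 9873 genes were given a log2 change of 2. It called 144 of these and 12 unchanged genes, so some changes of that size were missed. Other steps used Python 3.11.15, pandas 2.3.3, numpy 2.4.6, scipy 1.17.1 and matplotlib 3.10.9.

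The genes and lists were chosen with earlier results of these data known. All 10 genes and MFAP2 were named, with the XBP1 transcripts of at least 1 FPKM and, from the wider lists, up to 12 genes with an unadjusted p under 0.05 and no overlap of the groups. Transcripts of ATF4, HERPUD1 and HSP90B1 were named after their values were seen. Alternatives covered the pseudocount, the filter, quantile and median-of-ratios scaling, no trend, an adjusted p under 0.1 as the only threshold, the replicate block, each library left out and, for single genes, sums of transcripts. The fold changes carry no counting interval, since no counts were used here.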

Additional observations from a re-analysis of the deposited data

How the results depend on the processing

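None of the 9 genes and none of the 59 wider genes was called under any of the 12 alternatives run for these counts (a pseudocount of 0.1, both other filters, both scalings, no trend, the replicate block, each library left out, and an adjusted p under 0.1 as the only threshold). Sums of transcripts were run for single genes only. Over all genes, the number called was 27 in the main analysis, 6 without the filter, 9 with a limit of 5 FPKM, 22 with median-of-ratios scaling, 0 in each of the fits that left out a library and 0 with the replicate block. Same-numbered libraries did not deviate together (r = -0.06 across 9873 genes, which are not independent), so the numbers were not taken as pairs, and with the replicate block 722 genes had an unadjusted p under 0.05 and none of the 9 genes was called.

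The median difference of the 9 genes, -0.01, was -0.11 with a limit of 5 FPKM on the mean, -0.14 with quantile scaling, 0.0618 with median-of-ratios scaling and -0.216 to -0.0485 with a library left out. That of the wider genes, -0.04, was -0.0039 with quantile scaling, 0.0315 with median-of-ratios scaling and -0.105 to -0.00235 with a library left out. The sign of HSPA5 turned with quantile scaling (-0.0109) and without sh-MFAP2 replicate 1 (range with a library left out -0.0645 to 0.296). That of HSP90B1 turned with median-of-ratios scaling (0.0623) and without replicate 2 of either group (range -0.176 to 0.156). That of DDIT3 turned with a pseudocount of 0.1 (-0.000152) and without replicate 2 of either group (range -0.262 to 0.269), and ERN1 with the sum of transcripts (0.16). The cause was not tested. XBP1, ATF4, CALR, ATF6, DNAJB9 and HERPUD1 kept their sign under every alternative, with XBP1 at 0.555 to 0.955. In each of them both sh-MFAP2 values lay on one side of both control values. Their sign could therefore have turned only with the scalings or the sums of transcripts.

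The spliced share of XBP1 differed by 2.0 to 9.29 percentage points with a library left out. Over the spliced forms and ENST00000216037 alone, a choice made after seeing the data, it was 45.5% and 37.5% in sh-MFAP2 cells and 16.4% and 29.4% in control cells, a difference of 18.6 points. Depth behind ERN1 and DDIT3 was about 143 to 219 fragments per library.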

Other observations

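Some genes of the wider lists, chosen after their values were seen, differed more within a group than between groups. PPP1R15B, a subunit of the phosphatase that reverses PERK signalling, was listed at 17.3 and 0.229 FPKM with the MFAP2 shRNA and at 14.8 and 13.6 FPKM in control cells. SEC61A1, the pore subunit of the translocon, was listed at 26.1 and 51.2 FPKM with the MFAP2 shRNA and at 51.8 and 25.2 FPKM in control cells, so that 1 library of each group was high. ERO1A, the oxidase that supplies disulfide bonds, was listed at 35.1 and 16.7 FPKM against 35.3 and 33.1 FPKM. The low value of sh-MFAP2 replicate 2 alone made the mean differences of PPP1R15B and ERO1A negative. That of SEC61A1 was 0.02. SDF2L1, a cofactor of BiP, was listed at 65.0 and 58.3 FPKM against 50.4 and 27.9 FPKM, a difference of 0.70 (SE 0.323, 95% interval -0.22 to 1.62) that did not pass the test.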
